A study of Mus musculus with 10 samples.

Results

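The Ifit genes encode interferon-induced proteins with tetratricopeptide repeats, and in the mouse they lie side by side on chromosome 19. The 6 members described here, Ifit1, Ifit2, Ifit3, Ifit3b, Ifit1bl1 and Ifit1bl2, were the rows of the count table with those gene names, 6 of 56980 genes in all. They were selected because their measured values differed between the genotypes, so their levels in JAML knockout (KO) and wild-type (WT) libraries are given as a description, with no test. RNA-seq counts came from mouse macrophages, 5 KO and 5 WT libraries, all treated with lipopolysaccharide (LPS) at 100 ng/ml for 8 h and then with adenosine triphosphate (ATP) at 5 mM for 30 min. Jaml encodes a junctional adhesion molecule-like membrane protein. The titles describe a macrophage knockout, whereas the genotype entry reads knockdown, and the labels used here name no Cre line, strain or age. No untreated library was analysed here, so every value is a level after LPS and ATP.

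Type I interferon binds a cell-surface receptor and, through the kinases Jak1 and Tyk2, activates transcription factors. One of the complexes formed, which holds Stat2 and Irf9, binds the interferon-stimulated response element (ISRE) in promoters. Ifit genes are among the classical targets of this complex, and can also be switched on directly by interferon regulatory factors after LPS or viral RNA. Ifit1 protein binds messenger RNA whose cap lacks the ribose methyl mark on the first nucleotide and blocks its translation. Ifit2 and Ifit3 also act as antiviral proteins, and in human cells IFIT3 binds and stabilises IFIT1. Ifit3b is a close copy of Ifit3, and Ifit1bl1 and Ifit1bl2 are copies related to Ifit1.

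The 5 KO columns are headed SI in the deposited table and were taken as KO by elimination, because no other group is in the series. Jaml had 2 counts in KO 4, 2 counts in WT 1 and 0 in the other 8 libraries, so it could not check the labels. Library totals were 19319512 to 22766319 counts, and 3 counts corresponded to 0.132 to 0.155 CPM (counts scaled to a common library size; the CPM levels below also use TMM factors). The summed level of 8 macrophage markers was 23076 to 25067 CPM in KO and 24059 to 25618 CPM in WT libraries. Of the marker lists of other cell types, the neutrophil list summed to 22.8 to 27.1 CPM in KO and 14.8 to 19.2 CPM in WT. The mast cell list summed to 3.31 to 4.47 CPM in KO and 6.40 to 11.5 CPM in WT, and the T cell list to 0.0491 to 0.403 CPM in KO and 0.428 to 1.04 CPM in WT. Plasmacytoid dendritic cells are known for high interferon output. The list of their markers summed to 26.3 to 33.8 CPM in KO and 40.8 to 44.7 CPM in WT. Of its 6 genes, 4 passed the count filter of the test given below, which called 1 lower and 0 higher in KO. Siglech, also on the list, had under 3 counts in every library. The fibroblast and mesothelial list summed to 585 to 748 CPM in KO and 546 to 606 CPM in WT. The same test called 3 of 3 tested mast cell genes lower in KO and 2 of 2 tested neutrophil genes higher. Of 6 fibroblast and mesothelial genes it called 1 lower and 3 higher, and of 8 macrophage genes 2 lower and 2 higher. Of all genes tested it called 15.0% lower and 14.1% higher. The part of the other cell types in the Ifit values was not tested.

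The promoters are shown first, because the members differ in whether the core of the response element stands near their start. Each window runs from 250 bases before to 50 bases after a start annotated by RefSeq on GRCm38.p6 and is written in the direction of transcription. Capitals mark GAAANNGAA or, on the other strand, TTCNNTTTC. Ifit3 (chr19:34583279-34583578, plus strand) and Ifit3b (chr19:34607707-34608006, plus strand) had 3 matches each. Ifit1 (chr19:34640639-34640938, plus strand) had 3, of which a pair overlap. The window of Ifit1bl1 printed here (chr19:34601919-34602218, minus strand) had 2, and that of Ifit2 (chr19:34550444-34550743, plus strand) had 0.
Ifit3: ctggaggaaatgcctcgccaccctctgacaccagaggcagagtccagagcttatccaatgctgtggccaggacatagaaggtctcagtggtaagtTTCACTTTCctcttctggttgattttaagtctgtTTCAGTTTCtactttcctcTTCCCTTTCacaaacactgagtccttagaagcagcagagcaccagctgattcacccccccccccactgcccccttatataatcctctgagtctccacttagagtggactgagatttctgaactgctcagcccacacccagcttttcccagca
Ifit3b: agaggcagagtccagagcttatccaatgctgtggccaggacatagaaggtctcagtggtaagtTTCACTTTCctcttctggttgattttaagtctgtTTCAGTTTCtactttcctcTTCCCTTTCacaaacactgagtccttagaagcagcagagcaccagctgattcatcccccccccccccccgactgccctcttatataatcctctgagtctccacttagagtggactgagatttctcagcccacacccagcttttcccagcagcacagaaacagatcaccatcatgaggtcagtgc
Ifit1: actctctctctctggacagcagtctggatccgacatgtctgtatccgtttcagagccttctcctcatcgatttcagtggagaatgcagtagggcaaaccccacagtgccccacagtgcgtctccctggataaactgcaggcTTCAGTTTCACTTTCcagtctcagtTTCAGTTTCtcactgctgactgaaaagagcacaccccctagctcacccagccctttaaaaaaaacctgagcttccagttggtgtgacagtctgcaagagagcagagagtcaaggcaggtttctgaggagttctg
Ifit1bl1: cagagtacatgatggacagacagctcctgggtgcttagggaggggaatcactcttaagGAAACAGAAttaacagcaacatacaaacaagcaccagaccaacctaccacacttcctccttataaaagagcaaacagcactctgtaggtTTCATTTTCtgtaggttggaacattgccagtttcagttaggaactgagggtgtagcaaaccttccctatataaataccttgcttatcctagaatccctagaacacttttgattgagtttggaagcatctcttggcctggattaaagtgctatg
Ifit2: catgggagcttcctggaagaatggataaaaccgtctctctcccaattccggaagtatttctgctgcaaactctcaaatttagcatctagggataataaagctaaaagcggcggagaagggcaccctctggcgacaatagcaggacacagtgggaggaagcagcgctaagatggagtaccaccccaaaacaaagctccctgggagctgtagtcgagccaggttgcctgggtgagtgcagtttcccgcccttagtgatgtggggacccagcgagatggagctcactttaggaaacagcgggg

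The Ifit3 and Ifit3b windows aligned over 260 bases, of which 258 (99.2%) were identical. Between the nearest match and the annotated start lay 125 bases in Ifit3b and 93 bases in Ifit3. In Ifit1 that distance was 75 bases. Ifit1bl1 and Ifit1bl2 each have a second annotated start, with 2 matches in the second window of Ifit1bl1 and 0 in that of Ifit1bl2. The first window of Ifit1bl2 (chr19:34640694-34640993, minus strand) faces that of Ifit1. The windows share 245 bases, so the 3 matches counted for Ifit1bl2 are the 3 of Ifit1 read from the other side. Ifit2 had 0 matches in its second window as well, and 1 TTCNNNGAA, a motif of interferon-gamma response elements, in its first, while no window of the other members held TTCNNNGAA. That these letters were not found says nothing of sites elsewhere. Among 32851 mouse promoter windows, 8.56% held GAAANNGAA on either strand and 8.30% held TTCNNNGAA. A match is a description of the letters and not a measured binding site.

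In KO libraries all 6 members stood lower than in WT libraries, with no overlap between the 5 KO and the 5 WT values of any member. Of the 14436 genes tested in edgeR's quasi-likelihood fit with Benjamini-Hochberg adjustment, 15.0% were called lower and 14.1% higher in KO, 29.1% in all, and 23.3% had no overlap between the genotypes. With library totals in place of TMM scaling the split was 1361 lower and 4231 higher, beside 2164 and 2036. All 6 members passed the filter on low counts and all 6 were called lower. Since the members were picked on this contrast, nothing is read from either count. The median log2 fold change of the 6 members was -1.75, from -3.82 to -1.05, beside 0.01 for all genes tested. In bulk RNA, fewer cells that express a gene and less of its RNA per cell cannot be told apart.

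Ifit2 (ENSMUSG00000045932) had 283, 284, 213, 315 and 141 CPM in KO 1 to KO 5, and 1305, 1249, 1211, 1291 and 1443 CPM in WT 1 to WT 5. The highest KO library lay well under the lowest WT library, and KO 5 had the lowest value of all. The level averaged 247 ± 70.3 CPM in KO and 1300 ± 88.1 CPM in WT (SD, n = 5 each), 5.26-fold lower in KO, with a log2 fold change of -2.40 ± 0.18 (SE). Ifit2 was thus the 27th gene of the 14436 when these were ranked by how far they fell in KO. In the same ranking Ifit1bl1 was at place 3, Ifit3b at 69, Ifit3 at 88, Ifit1 at 205 and Ifit1bl2 at 298.

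Ifit3 (ENSMUSG00000074896) had 291, 297, 214, 288 and 154 CPM in KO 1 to KO 5, and 774, 735, 788, 768 and 877 CPM in WT 1 to WT 5. KO 3 and KO 5 were the low KO libraries here too, and WT 5 was the highest. The mean was 249 ± 62.8 CPM in KO and 788 ± 53.3 CPM in WT, 3.17-fold lower in KO (log2 fold change -1.66 ± 0.16). Ifit3b (ENSMUSG00000062488), its close copy, had 41.2, 47.1, 34.5, 44.7 and 25.1 CPM in KO 1 to KO 5, and 130, 131, 140, 135 and 151 CPM in WT 1 to WT 5. As for Ifit3, KO 5 was the lowest KO library and WT 5 the highest WT library. Ifit3b averaged 38.5 ± 8.89 CPM in KO and 137 ± 8.67 CPM in WT, 3.57-fold lower in KO (log2 fold change -1.83 ± 0.14).

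Ifit1 (ENSMUSG00000034459), the cap sensor of the family, had 311, 297, 233, 299 and 197 CPM in KO 1 to KO 5, and 639, 599, 596, 606 and 719 CPM in WT 1 to WT 5. The groups stood closer together than for Ifit2 and Ifit3. Its mean was 267 ± 49.6 CPM in KO and 632 ± 51.7 CPM in WT, 2.36-fold lower in KO, with a log2 fold change of -1.24 ± 0.12.

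Ifit1bl1 (ENSMUSG00000079339) had the largest fold difference of the 6 members. It had 4.88, 4.57, 3.13, 4.47 and 2.42 CPM in KO 1 to KO 5, from 48 to 106 counts, and 53.7, 54.5, 53.4, 53.3 and 61.1 CPM in WT 1 to WT 5, from 1019 to 1228 counts. The lowest WT library stood 10.9-fold above the highest KO library. Means were 3.90 ± 1.06 CPM in KO and 55.2 ± 3.34 CPM in WT, 14.2-fold lower in KO (log2 fold change -3.82 ± 0.15), the third-largest fall among the 14436 genes. The neighbouring copy Ifit1bl2 (ENSMUSG00000067297) was near the lower end of what the libraries resolve, with 11 to 31 counts in KO and 32 to 40 counts in WT libraries. It had 0.737, 1.34, 0.492, 0.982 and 1.01 CPM in KO 1 to KO 5, and 1.83, 2.14, 1.87, 1.64 and 1.99 CPM in WT 1 to WT 5. The gap between the groups was narrow, since the lowest WT library was 1.23-fold above the highest KO library. Its level averaged 0.911 ± 0.317 CPM in KO and 1.89 ± 0.187 CPM in WT, 2.08-fold lower in KO (log2 fold change -1.05 ± 0.23).

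**Figure D1:**
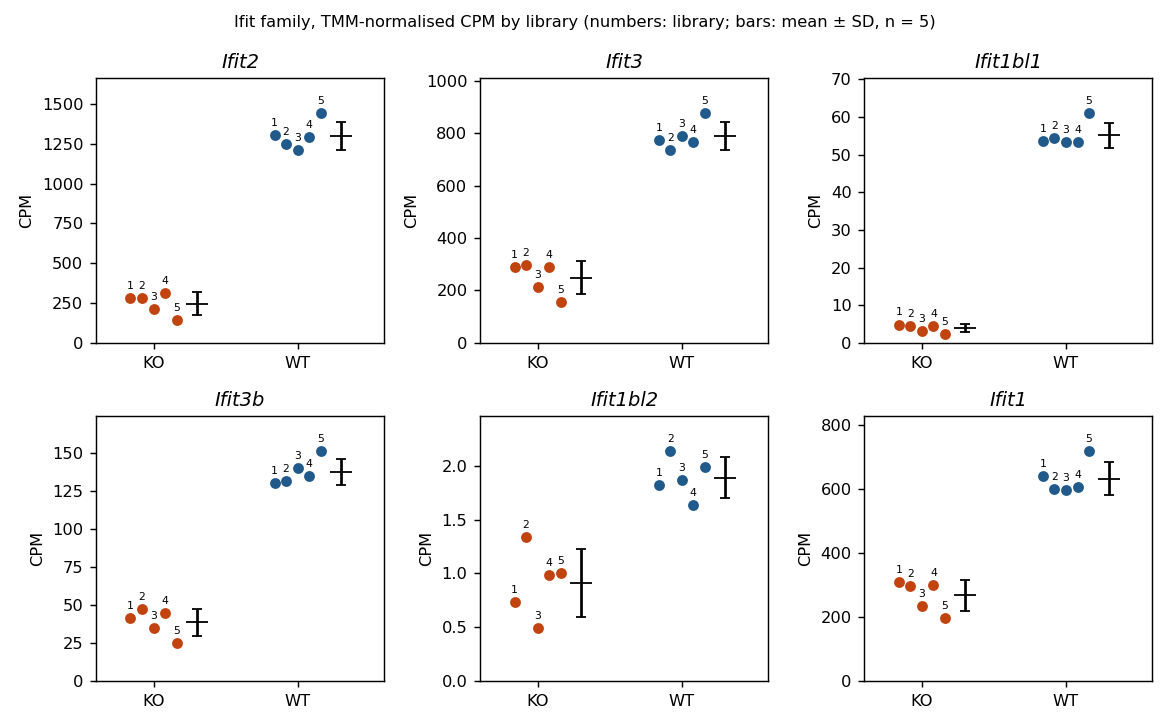
TMM-normalised level (CPM, linear axes from 0 that differ between panels) of the 6 Ifit members in each library, KO left of WT, with numbered points for the 5 libraries of a genotype and black bars for their mean ± SD. In every panel the KO points lie under the WT points, with the largest fold in Ifit1bl1 (3.90 against 55.2 CPM) and the smallest in Ifit1bl2 (0.911 against 1.89 CPM).

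Summed over the 6 members, the family stood at 931, 930, 698, 953 and 521 CPM in KO 1 to KO 5, and at 2903, 2771, 2792, 2854 and 3254 CPM in WT 1 to WT 5. The sum averaged 806 ± 191 CPM in KO and 2915 ± 197 CPM in WT, 3.61-fold lower in KO. As a share of all counts of a library the family took 0.0838 ± 0.0198% in KO and 0.280 ± 0.0169% in WT.

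The members did not fall in proportion, so the make-up of the family differed between the genotypes. To compare genes, CPM was divided by the gene lengths that the deposited FPKM values of the WT libraries imply, which run from 1745 bases for Ifit3 to 4366 for Ifit2. On this scale the KO order was Ifit3 at 142.5 ± 36.0, Ifit1 at 100.6 ± 18.7, Ifit2 at 56.6 ± 16.1, Ifit3b at 19.3 ± 4.45, Ifit1bl1 at 1.72 ± 0.471 and Ifit1bl2 at 0.271 ± 0.0941 CPM per kb. In WT the order was Ifit3 at 452 ± 30.5, Ifit2 at 298 ± 20.2, Ifit1 at 237.9 ± 19.5, Ifit3b at 68.7 ± 4.34, Ifit1bl1 at 24.4 ± 1.48 and Ifit1bl2 at 0.562 ± 0.0557 CPM per kb. Ifit1 and Ifit2 thus changed places. The ranges of neighbours in the WT order did not overlap, while in KO those of Ifit3 and Ifit1 did, although Ifit3 was the higher one in 5 of 5 KO libraries.

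The ratio of Ifit2 to Ifit1 per kb was 0.553 ± 0.0755 in KO (0.434 to 0.641) and 1.25 ± 0.0300 in WT (1.22 to 1.30). The ratio of Ifit3 to Ifit1bl1 was 83.1 ± 4.04 in KO and 18.5 ± 0.620 in WT. Both pairs thus differed between genotypes by more than their ranges within one. The ratio of the copies Ifit3 and Ifit3b differed less, with 7.37 ± 0.420 in KO (7.05 to 8.08) and 6.58 ± 0.161 in WT (6.42 to 6.82). These ranges did not overlap either, and the ratio depends on how reads shared by the copies were split, which is uncertain. Ifit1 made up 31.7 ± 2.28% of the family's per-kb level in KO and 22.0 ± 0.462% in WT, and Ifit2 17.4 ± 1.36% in KO and 27.5 ± 0.649% in WT. Ifit1bl1 made up 0.533 ± 0.0321% in KO and 2.26 ± 0.0566% in WT. Ifit3 remained the leading member, with 44.2 ± 1.23% in KO and 41.8 ± 0.767% in WT.

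**Figure D2:**
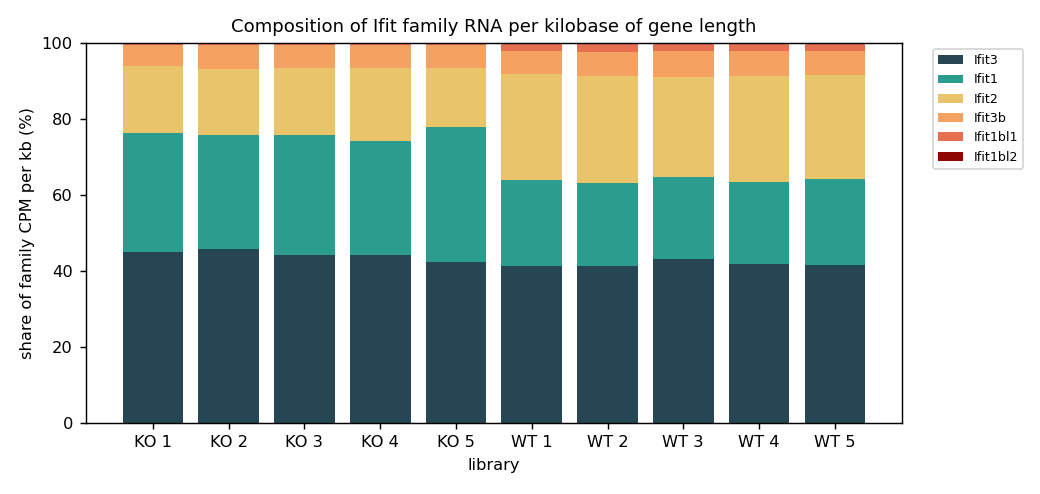
Share of each Ifit member in the family's summed level per kb (percent), as 1 stacked bar per library with KO left of WT and colours for members. Ifit1 takes a larger share in KO bars (mean 31.7% in KO, 22.0% in WT), and Ifit2 a smaller one (17.4% in KO, 27.5% in WT).

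Reads of near-identical copies can be split between genes or lost, and the counter was not given in the sources used here. In GENCODE vM21 transcripts, 51.2% of the 50-base words of Ifit3 and 44.5% of those of Ifit3b occurred in the other gene, and 31.7% and 27.4% at 100 bases. The split between Ifit3 and Ifit3b is therefore uncertain. Ifit1 shared 7.13% of its 50-base words with another member, Ifit1bl1 6.60% and Ifit1bl2 9.34%, while Ifit2 shared 0. At 100 bases Ifit1bl1 shared 0.524% of its words. Copies outside the family were not searched.

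Within a genotype the libraries differed along 1 pattern that most members shared. KO 5 was the lowest KO library for 5 of 6 members, at 0.514 of the mean of the other KO libraries for Ifit2, 0.566 for Ifit3, 0.567 for Ifit1bl1, 0.598 for Ifit3b and 0.692 for Ifit1. WT 5 was the highest WT library for the same 5 members, at 1.13 to 1.18 of the mean of the other WT libraries. Ifit1bl2 went its own way, lowest in KO 3 and highest in WT 2. The KO libraries also spread more widely than the WT libraries in 6 of 6 members, with coefficients of variation of 28.4% in KO and 6.78% in WT for Ifit2, and of 18.5% in KO and 8.18% in WT for Ifit1. The median SD of log2 CPM over the members was 0.423 in KO and 0.0952 in WT. Over all genes tested it was 0.136 in KO and 0.126 in WT, and 56.2% of them had the larger SD in KO. The wider KO spread was shared by related genes, with the larger SD in KO in 33 of 35 other interferon-stimulated genes (median 0.232 in KO and 0.0820 in WT), 11 of 12 signalling genes and 13 of 16 production genes.

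Other interferon-stimulated genes showed this order of libraries too. KO 5 was the lowest KO library in 31 of 35 of them (88.6%), against 19.7% of all genes tested, and WT 5 was the highest WT library in 25 of 35 (71.4%), against 21.3%. Of the signalling genes, KO 5 was lowest in 7 of 12 and WT 5 highest in 6 of 12, and of the production genes KO 5 was lowest in 6 of 16 and WT 5 highest in 8 of 16. The cap-related genes had KO 5 lowest in 1 of 11 and WT 5 highest in 1 of 11.

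**Figure D3:**
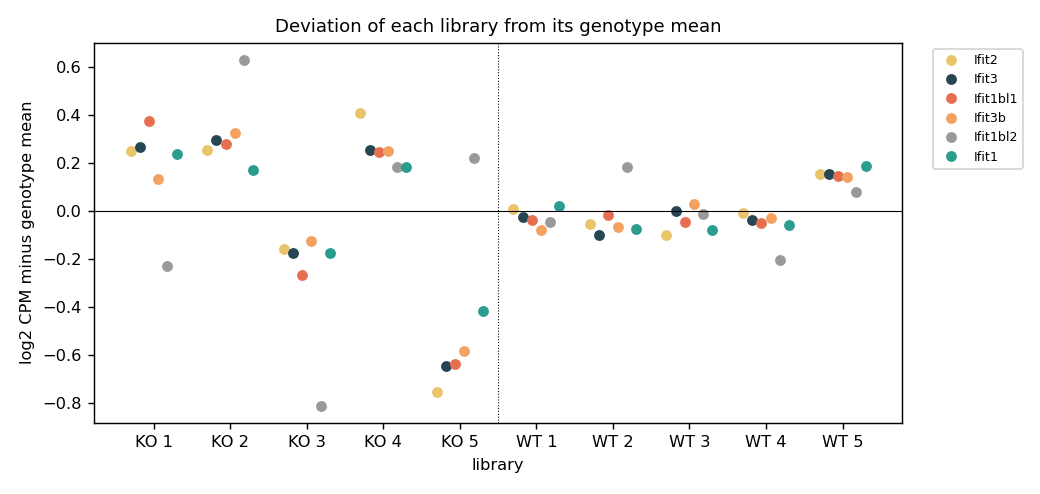
Log2 CPM of each Ifit member in each library minus its mean over the 5 libraries of the same genotype, KO left of WT, with 1 coloured point per member. The members except Ifit1bl2 lie together in most libraries, lowest in KO 5 among KO libraries and highest in WT 5 among WT libraries.

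To describe which genes follow this pattern, the genotype means were subtracted from log2 CPM and the remainders were correlated over the 10 libraries, in which all genes share the depth and scaling of their library. Among the 5 members other than Ifit1bl2 the Pearson r of the 10 pairs ran from 0.92 to 0.98. The 5 pairs with Ifit1bl2 had r of 0.13 to 0.23 at its low counts. The 8 other genes most like the mean of the members, out of 11882 genes whose mean log2 CPM reached 1, were Mx1 (r = 0.988), Ifi214 (0.986), Ifi209 (0.981), Ogfr (0.977), Ifi213 (0.967), Ifih1 (0.965), Igtp (0.961) and Rsad2 (0.961). Without KO 5 and KO 2, the libraries farthest from the median, r stayed at 0.908 to 0.980 for these 8 genes, and Spearman's rho over all 10 was 0.867 to 0.964. The median r of all 11882 genes was 0.02, and 72 of them had r above 0.9. The 8 named genes are therefore the top of a larger set. They were picked by r in the same 10 libraries, so the further r and rho are no separate check.

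The 8 genes fell in KO by edgeR's quasi-likelihood test. Mx1, which encodes a dynamin-like GTPase, averaged 40.6 ± 12.9 CPM in KO and 185 ± 10.5 CPM in WT (log2 fold change -2.19 ± 0.19, Benjamini-Hochberg adjusted p = 6.28e-06). Rsad2, which encodes the antiviral enzyme viperin, averaged 352 ± 62.1 CPM in KO and 1564 ± 91.0 CPM in WT (-2.15 ± 0.11, edgeR adjusted p = 1.78e-07). Ifi209, of the interferon-inducible p200 family together with Ifi213 and Ifi214, averaged 92.2 ± 19 CPM in KO and 381 ± 27.4 CPM in WT. Igtp, an immunity-related GTPase, averaged 44.4 ± 7.51 CPM in KO and 119 ± 7.45 CPM in WT. Ogfr, the opioid growth factor receptor gene, differed less, with 114 ± 12.5 CPM in KO and 178 ± 5.19 CPM in WT (-0.64 ± 0.07, edgeR adjusted p = 2.6e-05).

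The pathway that leads to Ifit transcription was described next, by lists chosen with earlier results of these data known. Whether a listed gene stood lower as a step before Ifit or as a gene that itself responds to interferon was not tested. Of 12 genes of interferon signalling, 8 were called lower and 0 higher in KO, with a median log2 fold change of -0.53, beside 15.0% and 14.1% of all genes. Stat2, a subunit of the complex that binds the response element, averaged 129 ± 15.6 CPM in KO and 274 ± 9.47 CPM in WT (-1.09 ± 0.07, edgeR adjusted p = 1.01e-06). Irf9, another subunit, differed less than Stat2, with 64.2 ± 4.48 CPM in KO and 76.8 ± 4.83 CPM in WT (-0.26 ± 0.06, edgeR adjusted p = 0.00607).

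The receptor genes Ifnar1 and Ifnar2 were not called, at log2 fold changes of 0.06 ± 0.11 and 0.06 ± 0.04 (edgeR adjusted p = 0.750 and 0.354). With library totals in place of TMM scaling, Ifnar2 was called higher in KO (log2 fold change 0.17, edgeR adjusted p = 0.00472), and the list had 7 lower and 1 higher. Of the receptor's kinases, Tyk2 averaged 121 ± 6.62 CPM in KO and 210 ± 9.41 CPM in WT (-0.80 ± 0.05, edgeR adjusted p = 3.66e-07). The other kinase gene, Jak1, was lower by a small amount (-0.14 ± 0.03, edgeR adjusted p = 0.00949) and was not called when library totals replaced TMM scaling. Usp18, which removes Isg15 from proteins and damps the receptor, averaged 177 ± 35.1 CPM in KO and 490 ± 7.01 CPM in WT (-1.47 ± 0.12, edgeR adjusted p = 3.5e-06). Isg15 itself, a ubiquitin-like protein, averaged 283 ± 64.1 CPM in KO and 663 ± 61.3 CPM in WT (-1.23 ± 0.15, edgeR adjusted p = 6.9e-05). The remaining inhibitor, Socs1, was at -0.10 ± 0.11 and Irf2, a repressor at such elements, at -0.04 ± 0.11, and neither was called (edgeR adjusted p = 0.570 and 0.827). Irf1, an activator at the same elements, averaged 40.0 ± 5.08 CPM in KO and 84.3 ± 3.33 CPM in WT and fell.

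Of 16 tested genes that sense LPS or nucleic acids or drive interferon production, 11 were called lower and 0 higher in KO (median log2 fold change -0.41). Tlr3, the endosomal receptor for double-stranded RNA, had the largest fall of the list, with 17.1 ± 2.56 CPM in KO and 52.6 ± 6.96 CPM in WT (-1.62 ± 0.11, edgeR adjusted p = 1.05e-06). Irf7, the regulatory factor that amplifies interferon transcription, averaged 221 ± 35.5 CPM in KO and 490 ± 11.4 CPM in WT (-1.15 ± 0.10, edgeR adjusted p = 4.48e-06). Ifih1, the cytoplasmic RNA sensor Mda5, averaged 207 ± 24.6 CPM in KO and 429 ± 15.2 CPM in WT (-1.06 ± 0.07). Its relatives Ddx58 and Dhx58 fell too, both at a log2 fold change of -0.95. Irf3, the factor that acts before any interferon is made, was not called (-0.12 ± 0.06, edgeR adjusted p = 0.170), and neither was the adaptor Mavs (-0.01 ± 0.05).

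Tlr4, the LPS receptor, had 64.8 CPM in KO 3 and 69.2 CPM in WT 5, and 7.68 to 13.8 CPM in the other 8 libraries, so its levels split across the genotypes. The interferon genes on the production list were at or under the floor at this time point, and other interferon genes were not examined. Ifnb1 had 1 count over the KO libraries and 3 counts over the WT libraries, and Ifna2, Ifna4 and Ifna5 had 0 in all 10.

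Of 35 tested interferon-stimulated genes outside the family, 34 were called lower in KO and 0 higher (median log2 fold change -1.02). Of the 6 with the highest level, Gbp2, a guanylate-binding protein of the host defence, averaged 699 ± 79.6 CPM in KO and 1459 ± 82.7 CPM in WT. Parp14, an ADP-ribosyltransferase, averaged 626 ± 78.2 CPM in KO and 1292 ± 28.6 CPM in WT. Oas3, which makes oligoadenylates on double-stranded RNA, averaged 433 ± 101 CPM in KO and 1039 ± 28.5 CPM in WT. Ifitm3, which restricts virus entry, differed less, with 559 ± 60.8 CPM in KO and 717 ± 35.8 CPM in WT (-0.36 ± 0.07, edgeR adjusted p = 0.00246). Lgals3bp, a secreted galectin-binding glycoprotein, averaged 2518 ± 90.5 CPM in KO and 3004 ± 75.8 CPM in WT, and Rsad2 is given above. Oasl2, named after its values were seen as the gene of the list that was not called, was at -0.10 ± 0.20 (edgeR adjusted p = 0.748).

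Genes that make, bind or read the cap, the structure Ifit1 inspects, did not move one way. Of 11 tested, 1 was called lower and 2 higher in KO, beside 15.0% and 14.1% of all genes tested. Nothing particular to the list is read from so few calls. The median log2 fold change was -0.04, and 0.08 with library totals. Cmtr1, the enzyme that adds the methyl mark absent from the caps Ifit1 binds, averaged 108.6 ± 10.7 CPM in KO and 154.6 ± 7.29 CPM in WT (-0.51 ± 0.07, edgeR adjusted p = 0.000111). The nuclear cap-binding genes rose, Ncbp1 with 54.2 ± 1.40 CPM in KO and 45.1 ± 1.17 CPM in WT (edgeR adjusted p = 0.000185). Ncbp2 averaged 32.8 ± 2.62 CPM in KO and 26.4 ± 1.5 CPM in WT (edgeR adjusted p = 0.00266). The translation factor genes Eif3c and Eif3e, whose proteins are bound by Ifit proteins, were both at -0.04 and were not called (edgeR adjusted p = 0.347 and 0.621).

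**Figure D4:**
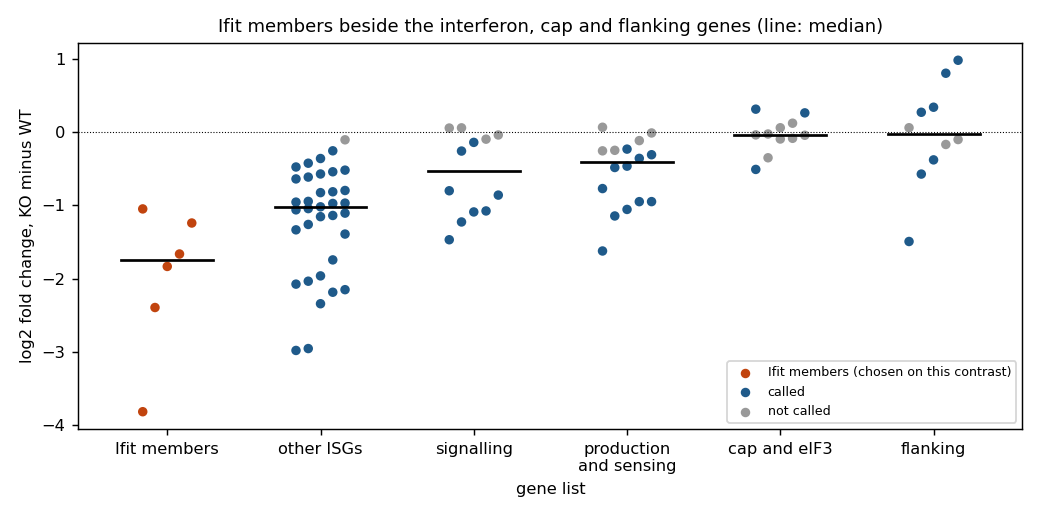
Log2 fold change (KO minus WT) of every tested gene of the family, of the 4 lists and of the genes flanking the cluster, 1 point per gene with grey for genes not called, and a line at each median. The family's points lie from -3.82 to -1.05 and were selected on this contrast, while the cap-related list has a median of -0.04.

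In the deposited table's own coordinates, whose build is not given in the sources used here, the 6 members span 99.3 kb of chromosome 19. Ifit2 lies at chr19:34528094-34553819, Ifit3 at chr19:34560931-34566131, Ifit1bl1 at chr19:34570291-34579356, Ifit3b at chr19:34585370-34590801, Ifit1bl2 at chr19:34594449-34618143 and Ifit1 at chr19:34618271-34627409. In GENCODE vM21, Ifit1bl1 and Ifit1bl2 are on the minus strand and the other 4 on the plus strand. Ifit1bl2 and Ifit1 are 127 bases apart, transcribed away from each other, and the other gaps are 3647 to 7111 bases. The pseudogene Cnn2-ps inside the cluster had 0 counts. The fall did not follow position, since Ifit1bl1 with the largest and Ifit1bl2 with the smallest both lie between genes with intermediate values.

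Within 1 Mb on each side, 10 of 47 other genes were tested. Of these, 3 were called lower and 4 higher in KO, beside 15.0% and 14.1% of all genes tested. The lower ones all lie on the Ifit2 side, as do Lipn, Stambpl1 and Acta2 among the higher ones. All tested neighbours except Pank1 and Kif20b lie on that side. Lipa, lysosomal acid lipase, lies 23.2 kb before Ifit2 and averaged 649 ± 19.3 CPM in KO and 844 ± 27.1 CPM in WT (-0.38 ± 0.03, edgeR adjusted p = 6.57e-06). Ch25h, which makes 25-hydroxycholesterol and is itself interferon-inducible, lies 75.5 kb before Ifit2. It had 9.91, 9.54, 9.04, 10.8 and 7.41 CPM in KO 1 to KO 5, and 23.6, 24.1, 29.1, 27.3 and 27.7 CPM in WT 1 to WT 5. Its groups did not overlap, and it fell by 1.49 ± 0.10 on the log2 scale in KO (edgeR adjusted p = 7.58e-07). The long noncoding RNA gene Gm26902 (-0.57 ± 0.20, edgeR adjusted p = 0.0462) overlaps Ch25h, and reads of overlapping genes cannot be separated without a stated strand setting. Its call was lost under most alternatives run.

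Beyond these, Acta2, smooth muscle actin, 295 kb before Ifit2, was higher in KO, with 48.0 ± 3.10 CPM in KO and 27.5 ± 1.69 CPM in WT (0.80 ± 0.06, edgeR adjusted p = 1.58e-06). Stambpl1, a deubiquitinase gene, was higher by 0.27 ± 0.05 (edgeR adjusted p = 0.00146), and Lipn, a lipase gene, by 0.34 ± 0.11 (edgeR adjusted p = 0.0375), a call lost under several alternatives. On the far side, Pank1, pantothenate kinase, 157 kb after Ifit1, averaged 5.99 ± 0.764 CPM in KO and 3.03 ± 0.578 CPM in WT (0.98 ± 0.14, edgeR adjusted p = 0.000278). Kif20b, a kinesin, was not called (-0.10 ± 0.13, edgeR adjusted p = 0.601). None of the 9 flanking genes with a promoter window held GAAANNGAA. Since 8.56% of all mouse promoter windows held it, nothing is read from its absence in 9 genes. Of the members, 4 of 6 had a match in every window and Ifit1bl2 had a match in 1 of its windows.

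**Figure D5:**
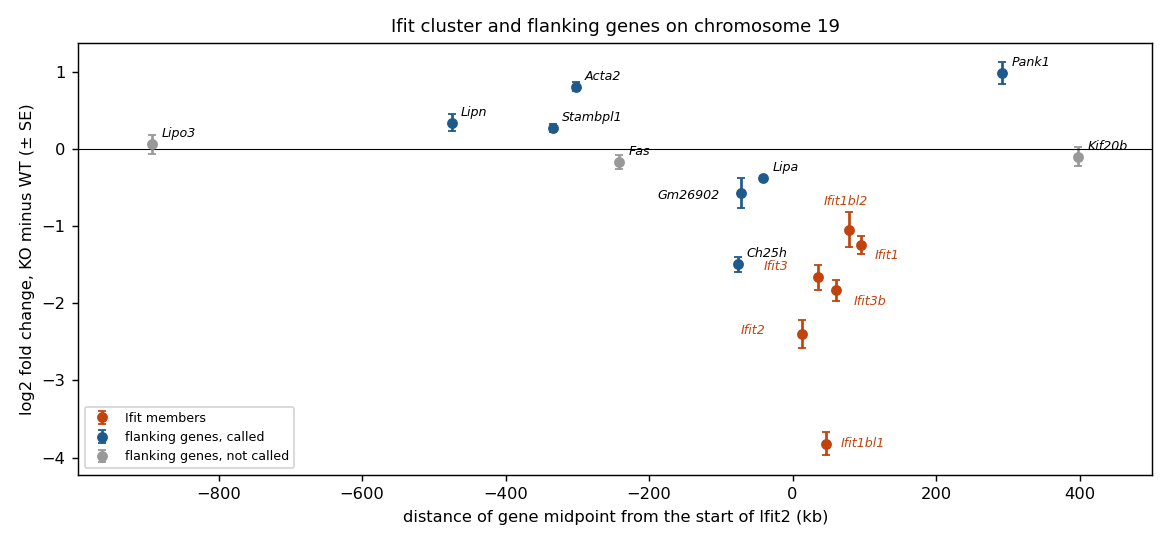
Log2 fold change (KO minus WT, with SE bars) of the Ifit members and the tested genes within 1 Mb, against the distance of the gene's midpoint from the start of Ifit2 (kb), in grey where not called. The members stand at -1.05 or lower, as does Ch25h at -1.49, while the other tested neighbours lie between -0.57 and 0.98.

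The motif counts were then set beside the genotype difference over the table, for the 9991 tested genes outside the family with a promoter window. Of the 895 with GAAANNGAA, 231 (25.8%) were called lower and 105 (11.7%) higher in KO, beside 16.0% lower and 15.1% higher among all 9991. Of the 828 with TTCNNNGAA, 156 (18.8%) were called lower. Of the interferon-stimulated genes outside the family, 27 had a window and 16 of those held GAAANNGAA. Ifit2, with 0 matches in both windows, had the second-largest fold difference of the 6 members.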

How the data were processed

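The authors deposited whole-number counts per gene, with FPKM beside them. The submitters' processing notes list CASAVA 1.8 and TopHat2 2.0.6 as tools, and mm10 and GRCm39 as builds with no role stated. Which counter, annotation and strand setting were used is not given in these sources. The 5 SI columns, taken as KO by elimination, were used for counts only, so 5 per-sample columns were not used. The deposited FPKM of the WT libraries served to recover gene lengths (largest relative spread 4.5e-06 over 8318 genes).

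Counts were tested, KO minus WT, with edgeR 4.0.16 in R 4.3.3 (quasi-likelihood test after TMM scaling and filterByExpr at a minimum count of 10), with Benjamini-Hochberg adjustment over 14436 genes. Calls needed an adjusted p below 0.05. CPM values are TMM-normalised, with factors of 1.02 to 1.07 in KO and 0.948 to 0.969 in WT libraries. The biological coefficient of variation was 12.83%. DESeq2 1.42.0, library totals, other filters, a replicate block and leaving out libraries were alternatives. Whether libraries came from separate animals or cultures is not given, and the p-values therefore reflect variation among these libraries alone, possibly technical. Floors cover counting error only.

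The members and lists were chosen with earlier results of these data known. Genes named were the members; genes of the signalling, production and cap lists; the 6 most abundant other interferon-stimulated genes; flanking genes that were called or among the 3 nearest on a side; and the 8 genes most correlated with the members. Promoters are from RefSeq (GRCm38.p6), whose coordinates differ from the table's, so positions on the 2 sources were not combined. Among 22 production genes listed, 20 were in the table and 16 tested; 1 of 36 other interferon-stimulated genes was not tested, and 11 of 12 cap genes were in the table. A gene of the signalling list is counted but not reported here by name.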

Additional observations from a re-analysis of the deposited data

Results flagged for a closer look

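Of 12 groups screened (6 members in 5 KO and in 5 WT libraries), 1 held a library far from the others, where chance flags about 1 in 20. Ifit1bl1 stood at 61.1 CPM in WT 5, with the next WT library at 54.5 CPM, a gap of 0.843 of the range of the 5 WT libraries. WT 5 was also the highest WT library for Ifit1, Ifit2, Ifit3 and Ifit3b. No cause was tested.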

How the results depend on the processing

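The family's summed level was 3.61-fold lower in KO, and 3.32- to 3.79-fold lower with each library left out in turn. The members' median log2 fold change of -1.75 ran from -1.83 to -1.62 over those omissions, was -1.63 with library totals in place of TMM, -1.78 with a replicate block, and -1.57 without KO 5 and WT 5, an alternative chosen after seeing the data. Under a stricter filter 5 members were kept and Ifit1bl2 dropped out. Genes called numbered 4200 (2164 lower, 2036 higher in KO), 3765 to 4085 with a library left out, 4160 with DESeq2's Wald test, 3744 with no filter, 3780 with the block and 3422 without KO 5 and WT 5, where 10 production genes and 5 flanking genes stayed called (11 and 7 with all libraries) and the other lists kept their counts. With library totals 5592 were called, 1361 lower and 4231 higher, and the median over all genes tested was 0.12 on the log2 scale in place of 0.01. With library totals the median log2 fold change was 0.08 for the cap list and 0.10 for the flanking genes, in place of -0.04 and -0.02. With one further A in the motif, 32.1% of genes that held it (129 of 402) were called lower in KO, in place of 25.8%. The other 134 of 135 alternatives for values that answer a comparison stayed within the limit set for their kind of value. For calls counted over both directions together, and for the SD within a genotype, that limit was 1.5 times. The family's median was held to the members' median SD in KO, and the fold of its sum to the spread among libraries. The family's sum and median stayed lower in KO in all of their alternatives. The split between lower and higher calls was not held to the limit of 1.5 times, and with library totals it moved as given above. Over pairs of a tested gene and an alternative, 29 calls were lost, 2 gained and none reversed; with library totals Jak1 (adjusted p = 0.516) and Sting1 (0.208) lost theirs and Ifnar2 was called higher in KO (0.00472). Same-numbered KO and WT libraries had correlations of -0.106 to 0.126, and the KO numbers come from column names, so the numbers do not pair libraries. Depth limits Ifit1bl2, at 11 to 40 counts.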
